A study of Mus musculus with 3 samples.

Results

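The genes described here make cholesterol, control its synthesis, bring it into and through the cell, or export it. They were taken from a fixed list of 33 symbols. A gene was included when the platform annotation gave at least 1 probe set with that symbol alone, and its brightest probe set by mean log2 signal over the 3 arrays was used. This found 30 genes among the 18193 genes with such a probe set. Acat2, Soat1 and Nr1h2 were not analysed here. Of the 30, 29 passed the limit on dim signals and entered the test, which covered 11089 genes in all, and Nr1h3 did not.

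The arrays compared primary epidermal keratinocytes from neonatal mice of the ICR strain, with 1 WT array and 2 RASSF9-/- arrays, each from the cells of a separate animal. RASSF9-/- mice are homozygous for an insertion of an LMP1 transgene, with its own upstream promoter, that removed part of a RASSF9 intron. They thus carry that transgene as well as lacking RASSF9, and the line descends from 1 insertion. The paper detected no LMP1 transcript in the skin of newborn mice and no LMP1 protein in the skin of older pups. Those checks used skin and not these cultures. The array methods name a serum-free keratinocyte medium low in calcium, and the cells were lysed as a confluent monolayer. The paper's results say growth medium for these cells, and its culture methods describe a low-calcium medium with fetal bovine serum. Which of these the cells on the arrays had is thus not settled. The deposited descriptions give 24 h of culture for WT and 48 h for RASSF9-/-, whereas the methods give 1 duration for every sample. If the descriptions hold, genotype and culture time cannot be told apart. By the names of the scans, the WT array and RASSF9-/- array 1 share a date and RASSF9-/- array 2 has another.

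Cholesterol is built from acetyl-CoA by a long series of enzymes. The early steps make mevalonate and then isoprenoid pyrophosphates, and squalene synthase commits farnesyl pyrophosphate to sterols. Squalene is then cyclised to lanosterol, which is demethylated, isomerised and reduced to cholesterol. The genes of these enzymes are switched on by the transcription factor SREBP2, which the escort protein SCAP carries out of the endoplasmic reticulum when sterols are scarce and which INSIG proteins hold back when sterols are plentiful. Oxysterols activate the LXR receptors, which raise the transcription of cholesterol exporters. In the epidermis, cholesterol is 1 of the lipids of the permeability barrier, and keratinocytes make much of it themselves.

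The disrupted gene was checked first. The brighter of the 2 Rassf9 probe sets had a signal of 478 in WT, while the RASSF9-/- arrays 1 and 2 read 59.6 and 120. Bacterial control probe sets reached 78.4, a level taken as background, so this probe set was in the background on RASSF9-/- array 1 only. The other Rassf9 probe set had 340 in WT and, in RASSF9-/- cells, 68.2 on array 1 and 76.7 on array 2. It was thus in the background on both RASSF9-/- arrays. All 8 keratinocyte markers were above background on every array, among them Krt14 and Krt5, with a summed signal of 173823 in WT against 141314 (array 1) and 167195 (array 2) in RASSF9-/- cells. All 6 melanocyte markers were too, with a summed signal of 28986 in WT and, in RASSF9-/- cells, 24569 on array 1 and 34602 on array 2. The summed signal of 7 fibroblast markers was 2618, 2343 and 3643 in the same order, with 5 to 7 of them above background, and those of 6 immune, 5 sebocyte, 4 endothelial and 3 adipocyte markers lay between 46.6 and 2197. Above background on every array were 2 of the immune markers (Cd68 and Csf1r), 1 endothelial (Kdr), 1 sebocyte (Scd3) and 0 adipocyte markers, while Ptprc, Cd207, Pecam1, Pparg, Adipoq and Lep were in the background on every array. Signals at the 3' end divided by those at the 5' end came to 0.832 to 0.939 for Gapdh and 1.37 to 1.43 for Actb. The part of these cell types in the results below was not tested.

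Genes of cholesterol synthesis had lower signals in RASSF9-/- keratinocytes than in WT. Of the 18 synthesis genes tested, 16 were lower on both RASSF9-/- arrays, none was higher on both, and 2 were split, with WT between the RASSF9-/- arrays. Among all genes tested, 32.7% were lower on both RASSF9-/- arrays and 33.6% were higher on both. Restricted to genes at or above the 75th percentile of signal, 32.9% were lower on both. The median log2 fold change of the synthesis genes was -0.81, against -0.01 for all genes tested. Both differences of a gene share the WT array, so a low or high WT value moves both the same way, and the background shares carry this too. Of the 8 keratinocyte markers, 5 (Krt5, Krt6a, Trp63, Sfn and Perp) were also lower on both RASSF9-/- arrays. Krt14 was higher on both, and 2 (Cdh1 and Itga6) were split. The sizes differed among the 5, and Krt5 and Krt6a were close to WT on RASSF9-/- array 2. Krt5 had 34842 in WT against 27760 (array 1) and 34616 (array 2) in RASSF9-/- cells. Krt6a had 39762, 34433 and 38789 in the same order, and Sfn had 13610, 10722 and 11963. Trp63, which encodes the basal keratinocyte factor p63, had 3239 in WT against 1459.9 (array 1) and 1543 (array 2) in RASSF9-/- cells (log2 fold change -1.11, SE 0.35, limma adjusted p = 0.689). Perp, a desmosome protein gene, had 25071 in WT, while the RASSF9-/- arrays 1 and 2 read 13007 and 20724. The part of these markers in the synthesis values was not tested.

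At least 1.5-fold lower on both RASSF9-/- arrays were 11 of the 18 synthesis genes, against 6.19% of all genes tested and 4.72% of those at or above the 75th percentile of signal. At least 2-fold lower on both by its brightest probe set was 1 synthesis gene, Mvk, against 2.24% of all genes. The second-brightest probe set of Mvk fell short of 2-fold on both arrays, whereas that of Idi1 passed it on both. No synthesis gene passed the adjusted threshold of limma, which 0.0812% of all genes tested did. Adjusted p-values of the synthesis genes ran from 0.576 to 1.00. At an unadjusted limma p under 0.05, 9 synthesis genes were lower and none was higher. By that measure 2.43% of all genes were lower, and 345 of the 11089 genes tested were higher. Over all 29 members it was 11 lower and 0 higher, a count that was 6 when each array was divided by its median, 4 without the intensity trend of limma and 1 with the methods' t-test. In whole cultures, fewer cells that express a gene and less of its RNA in each cell cannot be told apart.

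**Figure D1:**
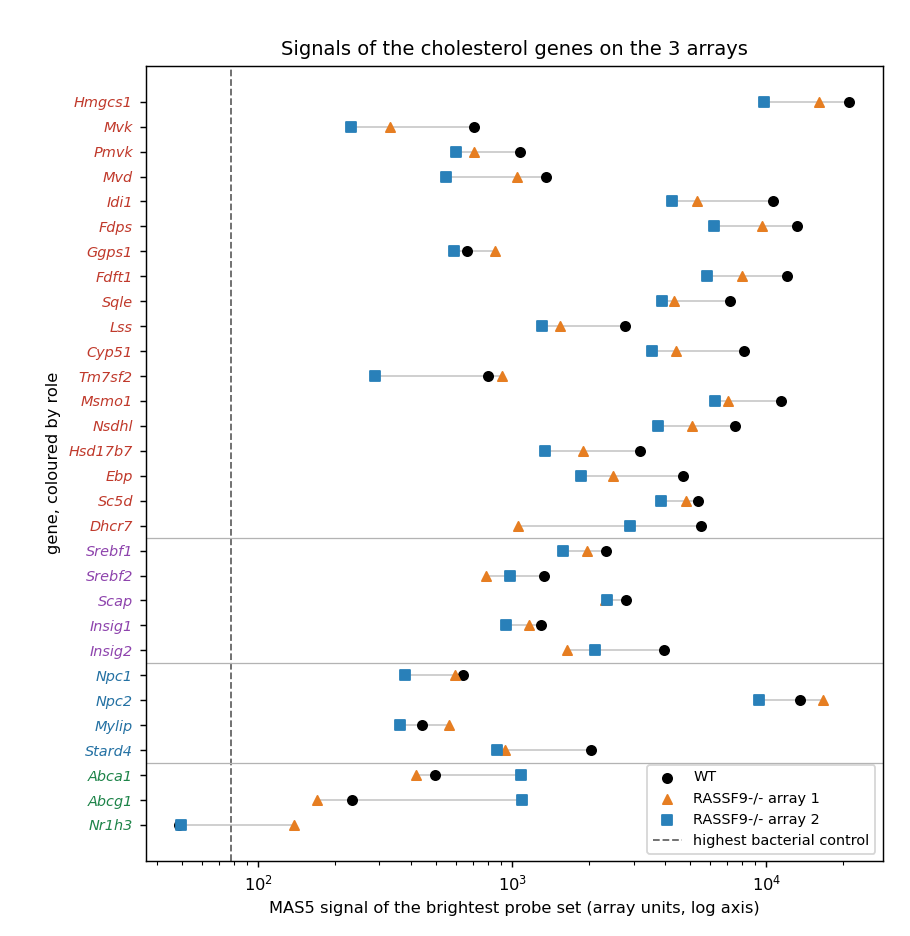
MAS5 signal in array units, on a log axis, of the brightest probe set of each of the 30 genes, with 1 marker for each array and a grey line from the lowest to the highest. Gene names are coloured by role, and the dashed line is the highest bacterial control (78.4). In 16 of the 18 synthesis genes the WT circle lies to the right of both RASSF9-/- markers, and for Nr1h3 the WT circle lies under the square of RASSF9-/- array 2.

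To show what the synthesis genes share outside these arrays, their promoters were read from RefSeq (GRCm38.p6). The windows run from 250 bases before to 50 bases after an annotated start. Of the 30 genes, 24 matched by symbol, with 33 windows. Windows were searched on both strands for the NF-Y box CCAAT, bound by the factor NF-Y, the GC box GGGCGG, bound by Sp1, the canonical sterol regulatory element, its looser form TCACNCCAC, and the LXR element, a direct repeat. The canonical element includes letters of the looser form, and no other pair of these motifs contains the other. NF-Y and Sp1 are known partners of SREBP at sterol genes. Printed here are the only window with the looser sterol element (Hmgcs1), those of the 2 synthesis genes with a window whose smaller change from WT was largest (Mvk and Idi1), and that of Ggps1, which was split between the arrays. Capitals mark the NF-Y box, the GC box and the looser sterol element in either orientation.

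Hmgcs1, chr13:119690101-119690400, plus strand: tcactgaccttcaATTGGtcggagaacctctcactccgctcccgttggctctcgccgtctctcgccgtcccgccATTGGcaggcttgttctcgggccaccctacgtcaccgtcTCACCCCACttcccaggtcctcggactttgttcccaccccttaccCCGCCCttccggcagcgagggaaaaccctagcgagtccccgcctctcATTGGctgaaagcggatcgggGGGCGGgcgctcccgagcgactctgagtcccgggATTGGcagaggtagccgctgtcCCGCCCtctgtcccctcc
Mvk, chr5:114444019-114444318, plus strand: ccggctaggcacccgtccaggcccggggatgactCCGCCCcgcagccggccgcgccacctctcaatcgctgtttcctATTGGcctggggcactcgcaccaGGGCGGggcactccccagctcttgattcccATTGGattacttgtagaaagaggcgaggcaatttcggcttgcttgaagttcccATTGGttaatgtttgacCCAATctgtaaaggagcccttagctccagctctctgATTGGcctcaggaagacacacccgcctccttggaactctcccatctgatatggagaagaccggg
Idi1, chr13:8885356-8885655, plus strand: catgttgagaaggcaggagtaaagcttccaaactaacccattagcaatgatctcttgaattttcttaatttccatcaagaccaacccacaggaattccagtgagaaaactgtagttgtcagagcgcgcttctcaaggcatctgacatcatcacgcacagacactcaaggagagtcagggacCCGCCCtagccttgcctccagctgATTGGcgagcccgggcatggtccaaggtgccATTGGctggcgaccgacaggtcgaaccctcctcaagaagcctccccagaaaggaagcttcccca
Ggps1, chr13:14063439-14063738, minus strand: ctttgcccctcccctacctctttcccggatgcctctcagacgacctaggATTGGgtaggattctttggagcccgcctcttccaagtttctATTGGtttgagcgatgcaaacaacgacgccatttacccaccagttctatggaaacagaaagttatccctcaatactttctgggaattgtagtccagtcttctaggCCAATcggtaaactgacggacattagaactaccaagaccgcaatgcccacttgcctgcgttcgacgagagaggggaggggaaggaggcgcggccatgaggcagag

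The Hmgcs1 window holds 1 looser sterol element, 4 NF-Y boxes and 3 GC boxes. Mvk has 5 NF-Y boxes and 2 GC boxes, Idi1 has 2 NF-Y boxes and 1 GC box, and Ggps1 has 3 NF-Y boxes and 0 GC boxes. An NF-Y box was present for 15 of the 15 synthesis genes with a window, against 42.6% of the 9004 genes tested with a window and 41.1% of all 27025 genes with one. Counted by window, it was in 83.3% of the synthesis windows and in 37.4% of all windows. A GC box was present for 13 of those 15 synthesis genes (86.7%) and for 69.8% of the genes tested. The looser sterol element was in 1 of the 24 genes, and in 1.47% of the genes tested. The canonical element and the LXR element were in none of the 24, and in 0.0555% and 0 of the genes tested. These are matches of letters in a short window. Among the split genes with a window, Ggps1, Tm7sf2, Mylip and Npc2 carry an NF-Y box as well, and Abca1 does not. The part of these motifs in the signals was not tested.

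**Figure D2:**
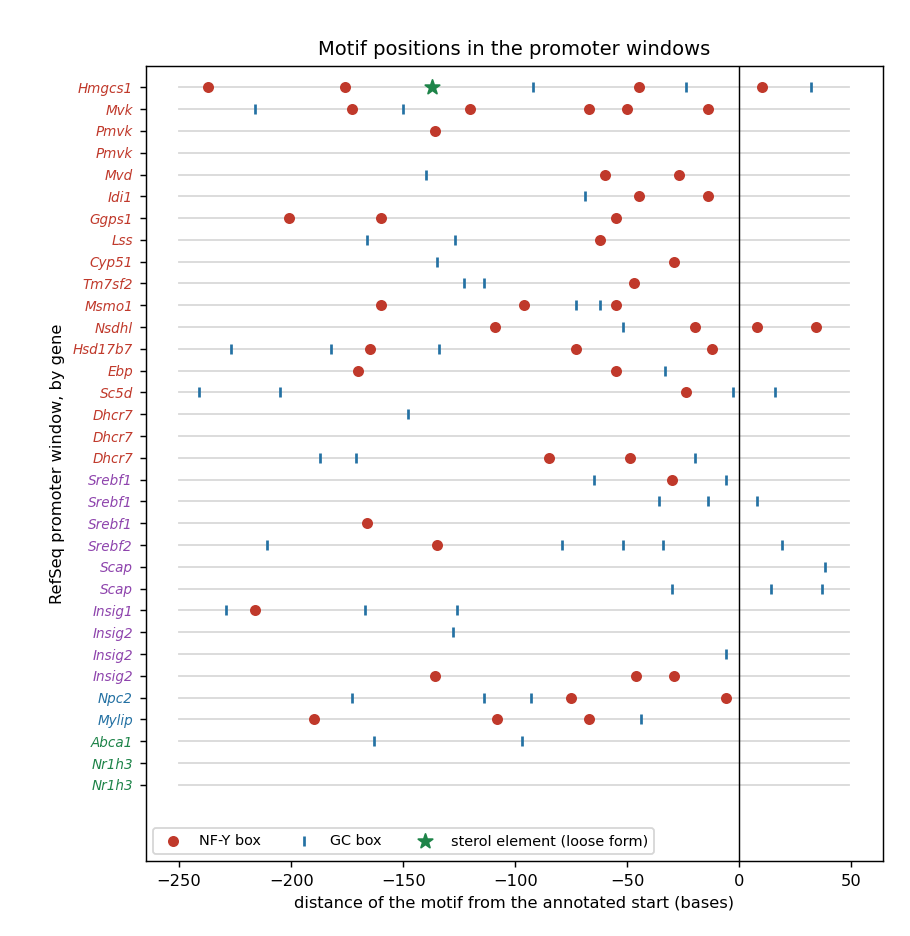
Positions of 3 motifs in the 33 RefSeq promoter windows of 24 genes, as the distance in bases of the motif's start from the annotated transcription start (vertical line). Each grey line is 1 window from 250 bases before to 50 after, gene names are coloured by role, and genes with several starts have several lines; every synthesis gene shown has at least 1 line with an NF-Y box, and only the Hmgcs1 line has the loose sterol element.

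The early enzymes, from the condensation of acetyl units to isoprenoid pyrophosphates, had a median log2 fold change of -0.77 over 7 genes, 6 of them lower on both RASSF9-/- arrays. Hmgcs1 encodes the cytosolic synthase of HMG-CoA, the substrate of mevalonate formation. Its signal was 21189.7 in WT against 16144 (array 1) and 9748 (array 2) in RASSF9-/- cells (log2 fold change -0.76, standard error (SE) 0.39, limma adjusted p = 1.00). Both RASSF9-/- values lay below WT, and array 2 was well below array 1. All 5 of its probe sets showed the same order of the 3 arrays.

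Mevalonate is phosphorylated by mevalonate kinase (Mvk) and phosphomevalonate kinase (Pmvk) and decarboxylated by Mvd. Mvk had signals of 705 in WT, while the RASSF9-/- arrays 1 and 2 read 331.5 and 232.5, which is 2.54-fold lower (log2 fold change -1.35, SE 0.50, limma adjusted p = 0.823). Its second probe set gave 462 in WT against 273.5 (array 1) and 274.6 (array 2) in RASSF9-/- cells, with log2 differences of -0.76 and -0.75. Pmvk had 1069 in WT and, in RASSF9-/- cells, 704.5 on array 1 and 598 on array 2 (log2 fold change -0.72). Mvd had 1352 in WT against 1040.0 (array 1) and 551 (array 2) in RASSF9-/- cells (log2 fold change -0.84). By the brightest probe set, WT was highest and RASSF9-/- array 2 lowest for these 3 genes in a row.

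Idi1 isomerises isopentenyl pyrophosphate and Fdps joins the units into farnesyl pyrophosphate. Idi1 had a signal of 10605 in WT, while the RASSF9-/- arrays 1 and 2 read 5318 and 4252, which is 2.23-fold lower (log2 fold change -1.16, SE 0.33, limma adjusted p = 0.576). This was the smallest adjusted p among the 29 members tested. A second Idi1 probe set gave 4854 in WT against 2055 (array 1) and 2038 (array 2) in RASSF9-/- cells, with log2 differences of -1.24 and -1.25. Fdps had 13189 in WT and, in RASSF9-/- cells, 9574 on array 1 and 6218 on array 2 (log2 fold change -0.77, and -0.15 with the mean of its 2 probe sets, the other of which was in the background on every array). Ggps1, whose product makes geranylgeranyl pyrophosphate and so leads away from sterols, had 662 in WT against 854 (array 1) and 588 (array 2) in RASSF9-/- cells. WT lay between the RASSF9-/- arrays, the log2 fold change was 0.10 (SE 0.45), and it was -0.06 with the mean of the gene's probe sets.

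From squalene onwards, 10 of 11 genes were lower on both RASSF9-/- arrays, with a median log2 fold change of -0.81. Fdft1, squalene synthase, had a signal of 12032 in WT, while the RASSF9-/- arrays 1 and 2 read 8001 and 5862 (log2 fold change -0.81). Sqle, squalene epoxidase, a rate-controlling step, had 7207 in WT and, in RASSF9-/- cells, 4345 on array 1 and 3892 on array 2, which is 1.75-fold lower (log2 fold change -0.81, SE 0.32, limma adjusted p = 0.887). Lss, which closes the rings of lanosterol, had 2786 in WT against 1538 (array 1) and 1308.5 (array 2) in RASSF9-/- cells (log2 fold change -0.97). The mean of its 3 probe sets gave -0.39, and the dimmest of them was in the background on 2 arrays. The other Lss probe set gave 606 in WT against 316 (array 1) and 212 (array 2) in RASSF9-/- cells. By the brightest probe set, the RASSF9-/- arrays were close to each other for Sqle and Lss and both were clearly below WT.

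Demethylation of lanosterol starts with Cyp51, whose signal was 8197.5 in WT, while the RASSF9-/- arrays 1 and 2 read 4416 and 3533. This is 2.08-fold lower (log2 fold change -1.05, SE 0.34, limma adjusted p = 0.689). Msmo1, Nsdhl and Hsd17b7 together remove the methyl groups at another carbon. Msmo1 had 11405 in WT and, in RASSF9-/- cells, 7033 on array 1 and 6295 on array 2. Nsdhl had 7520.4 in WT against 5100.3 (array 1) and 3735 (array 2) in RASSF9-/- cells. Hsd17b7 had 3188 in WT, while the RASSF9-/- arrays 1 and 2 read 1897 and 1346. Their log2 fold changes were -0.78 for Msmo1, -0.79 for Nsdhl and -0.997 for Hsd17b7, and in each of them the order was WT, then RASSF9-/- array 1, then RASSF9-/- array 2.

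Ebp, the sterol isomerase, had a signal of 4710.0 in WT and, in RASSF9-/- cells, 2487.5 on array 1 and 1863 on array 2, which is 2.19-fold lower (log2 fold change -1.13, SE 0.36, limma adjusted p = 0.701). Sc5d, the sterol desaturase that follows, had 5391 in WT against 4839 (array 1) and 3842 (array 2) in RASSF9-/- cells, the smallest difference among the 16 genes lower on both (log2 fold change -0.32). Its second probe set above background had 1142.5 in WT, while the RASSF9-/- arrays 1 and 2 read 959.9 and 288. The 2 probe sets thus differ in size on array 2. The mean of the gene's probe sets, which takes in a dimmer one in the background on RASSF9-/- array 1, gave -0.88. Tm7sf2, a sterol reductase, was split, with 805.5 in WT and, in RASSF9-/- cells, 907.5 on array 1 and 288 on array 2. Only RASSF9-/- array 2 was below WT for this gene.

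Dhcr7, which reduces 7-dehydrocholesterol to cholesterol, had the largest fitted difference of the synthesis genes, a rank that rests on RASSF9-/- array 1. Its signal was 5535 in WT against 1048 (array 1) and 2913 (array 2) in RASSF9-/- cells, which is 3.17-fold lower (log2 fold change -1.66, SE 0.61, limma adjusted p = 0.801). Here RASSF9-/- array 1 was the lowest, and without it the log2 difference from WT was -0.93, smaller than that of Mvk on array 2 (-1.60) and than the synthesis median there (-1.09). It was the exception in that respect, since 17 of the 18 synthesis genes were lower on RASSF9-/- array 2 than on RASSF9-/- array 1, against 54.8% of all genes tested. The synthesis median was -0.65 for RASSF9-/- array 1, which shares its date with WT, and -1.09 for RASSF9-/- array 2. On RASSF9-/- array 1 alone 16 of the 18 genes were below WT, and on RASSF9-/- array 2 alone 18 of 18. Of the 11089 genes tested, 5116 were below WT on RASSF9-/- array 1 alone and 5873 on RASSF9-/- array 2 alone.

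**Figure D3:**
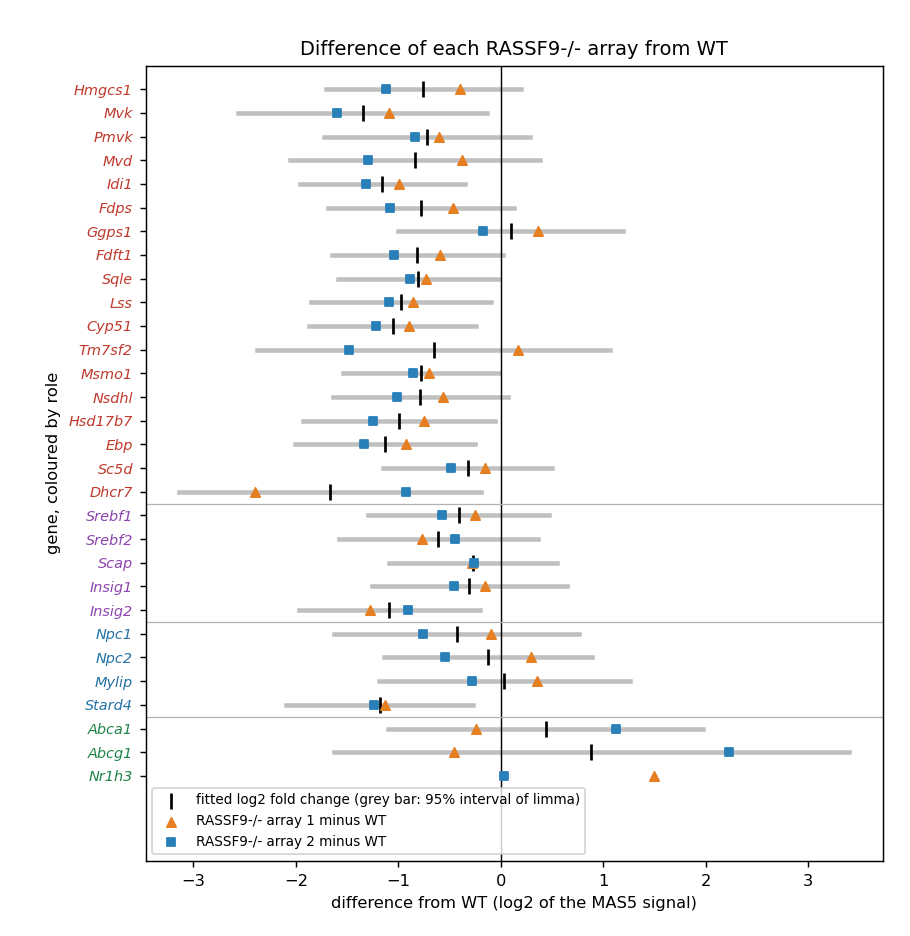
Difference from WT in log2 of the MAS5 signal for RASSF9-/- array 1 (triangles) and RASSF9-/- array 2 (squares), with the fitted log2 fold change (black tick) and its 95% interval from limma (grey bar) for the 29 genes tested. Nr1h3 was not tested and has no bar. Among the synthesis genes, triangles and squares lie left of 0 for 16 of 18, and squares lie left of triangles for all but Dhcr7.

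Most members have several probe sets, so the differences could be read more than once within these arrays. The 30 genes have 66 probe sets, of which 54 were above background on all 3 arrays. Beside the brightest, 15 genes had 25 further probe sets of this kind. Of these 25, 23 were on the same side of WT as the brightest probe set, and over all 25 there were 22 lower on both RASSF9-/- arrays, 0 higher on both and 3 split. Among the 18 that belong to synthesis genes, 16 were lower on both RASSF9-/- arrays. Probe sets of a gene share the RNA and the array, so they are not replicates.

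**Figure D4:**
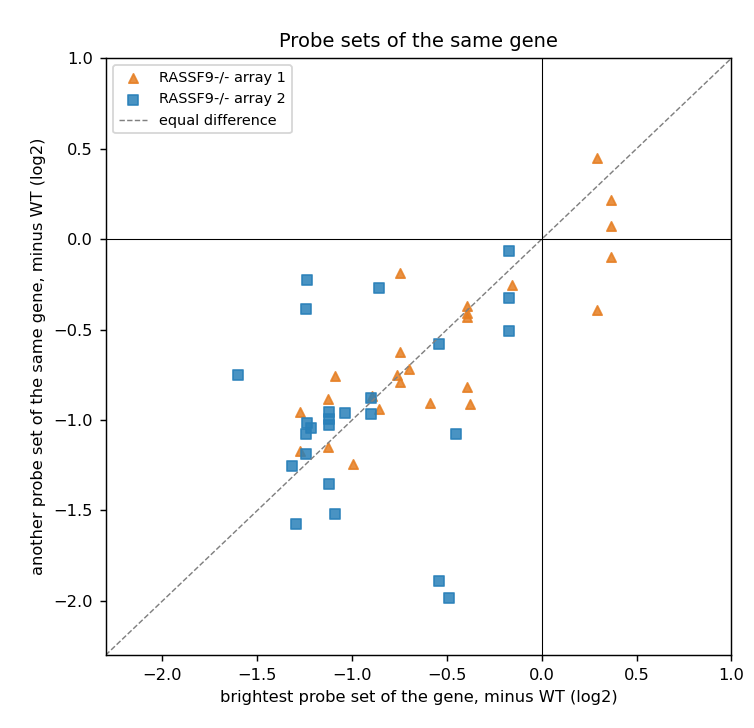
Difference from WT in log2 of the MAS5 signal for the brightest probe set of a gene (horizontal axis) and for each other probe set of the same gene above background on all arrays (vertical axis), with 25 points for each RASSF9-/- array. The dashed line marks equal differences. Most points lie in the lower left, near the line, and those far under it at the bottom are further probe sets of Sc5d and Npc2 on RASSF9-/- array 2.

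The 5 genes that encode SREBPs or their escort and retention proteins were all lower on both RASSF9-/- arrays, against 32.7% of all genes tested. Their median log2 fold change was -0.41, and none passed the adjusted threshold of limma. Insig2, which retains the SREBP complex in the endoplasmic reticulum, had the largest difference among these genes. Its signal was 3951 in WT, while the RASSF9-/- arrays 1 and 2 read 1635.5 and 2115, which is 2.12-fold lower (log2 fold change -1.09, SE 0.36, limma adjusted p = 0.742). The other two Insig2 probe sets gave 2799 in WT and, in RASSF9-/- cells, 1443 on array 1 and 1432 on array 2, and 1981, 879 and 1079 in the same order. All of them put both RASSF9-/- arrays below WT.

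Insig1, the paralog of Insig2 and itself a target of SREBP, had 1297 in WT against 1163 (array 1) and 946 (array 2) in RASSF9-/- cells (log2 fold change -0.31, 95% interval -1.26 to 0.64). Srebf2, which encodes SREBP2, had 1338 in WT, while the RASSF9-/- arrays 1 and 2 read 788 and 979.6 (log2 fold change -0.61, 95% interval -1.58 to 0.36). Its second probe set had 1176 in WT and, in RASSF9-/- cells, 698 on array 1 and 557 on array 2. Srebf1, whose products mainly drive fatty acid synthesis, had 2347 in WT against 1968 (array 1) and 1583 (array 2) in RASSF9-/- cells. Scap had 2812 in WT, while the RASSF9-/- arrays 1 and 2 read 2323 and 2349. For Srebf1 and Scap the log2 fold changes of -0.41 and -0.27 were close to their SEs of 0.37 and 0.34. Scap had -0.47 with the mean of its probe sets, the dimmer of which was in the background on every array.

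Among the 4 genes of uptake and transport inside the cell, Stard4 stood lowest against WT. It encodes a soluble carrier of cholesterol between membranes and is known as an SREBP target. Its signal was 2049 in WT and, in RASSF9-/- cells, 937.5 on array 1 and 869 on array 2, which is 2.27-fold lower (log2 fold change -1.18, SE 0.38, limma adjusted p = 0.689). A second probe set gave 1454 in WT against 656 (array 1) and 718 (array 2) in RASSF9-/- cells. A further one was only slightly below WT on RASSF9-/- array 2, with 796 in WT, while the RASSF9-/- arrays 1 and 2 read 431 and 679.7.

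Npc1 and Npc2 hand cholesterol out of the lysosome. Npc1 had 639 in WT and, in RASSF9-/- cells, 597 on array 1 and 377 on array 2 (log2 fold change -0.43, SE 0.50). Npc2 had 13597 in WT against 16654 (array 1) and 9324 (array 2) in RASSF9-/- cells, on opposite sides of WT (log2 fold change -0.13). The mean of the Npc2 probe sets, the dimmest of which was in the background on every array, gave -0.36. Mylip, a ubiquitin ligase that marks lipoprotein receptors for degradation and an LXR target, was also split, with 439.6 in WT, while the RASSF9-/- arrays 1 and 2 read 563 and 361. The median of the 4 genes was -0.28, 0.10 on RASSF9-/- array 1 and -0.65 on array 2, so its sign differs between the arrays.

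The exporters Abca1 and Abcg1, LXR targets that load cholesterol onto lipoproteins, were above WT on RASSF9-/- array 2 only. Abca1 had 496.5 in WT and, in RASSF9-/- cells, 419 on array 1 and 1084 on array 2 (log2 fold change 0.44, SE 0.64, limma adjusted p = 1.00). Abcg1 had 233 in WT against 170.0 (array 1) and 1091 (array 2) in RASSF9-/- cells (log2 fold change 0.89, SE 1.04, limma adjusted p = 1.00). Both were slightly below WT on RASSF9-/- array 1 and above it on RASSF9-/- array 2, by 1.13 for Abca1 and 2.23 for Abcg1 on the log2 scale. The summed melanocyte, fibroblast and immune markers given above were also highest on RASSF9-/- array 2, although the fibroblast collagens Col1a1 and Col1a2 were lowest there. The immune marker Csf1r gave 784 in WT, while the RASSF9-/- arrays 1 and 2 read 792 and 1686. Without Csf1r the other 5 immune markers summed to 506 in WT against 567 (array 1) and 511 (array 2) in RASSF9-/- cells. Without Vim the other fibroblast markers summed to 1319.6 in WT, while the RASSF9-/- arrays 1 and 2 read 1035 and 811. The part of these cells in the exporter signals was not tested. A second Abca1 probe set, in the background for WT at 44.9, gave 101 for RASSF9-/- array 1 and 99.5 for RASSF9-/- array 2. With the mean of its 3 probe sets, a further one being in the background on every array, Abca1 was higher on both RASSF9-/- arrays (log2 fold change 1.56). Nr1h3, which encodes the receptor LXR alpha, was in the background for WT at 48.8 and for RASSF9-/- array 2 at 49.8, with 138 for RASSF9-/- array 1.

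**Figure D5:**
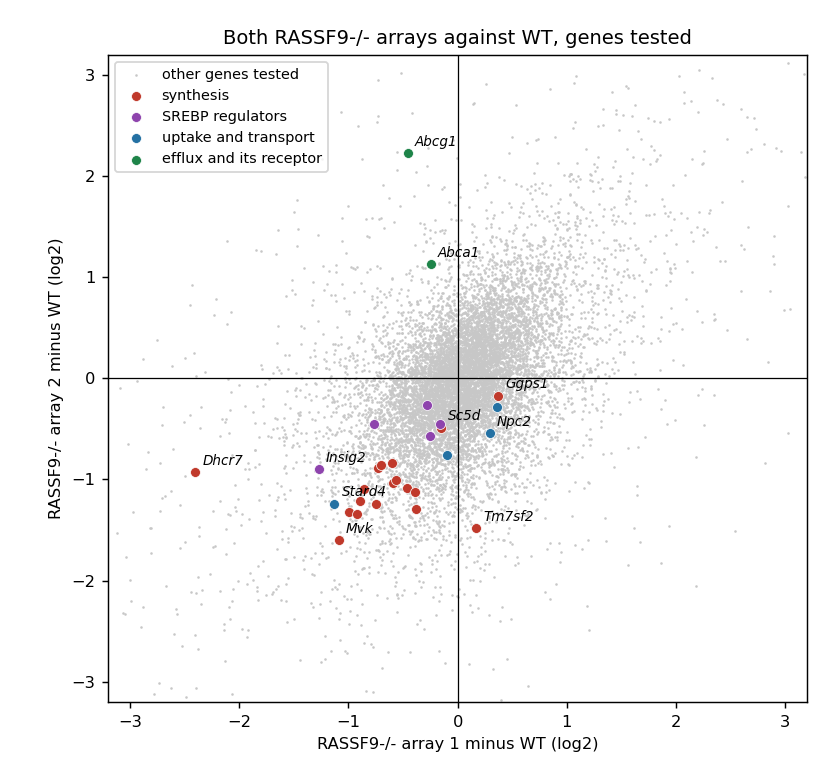
Difference from WT on RASSF9-/- array 1 (horizontal axis) and RASSF9-/- array 2 (vertical axis), in log2 of the MAS5 signal, for the 11089 genes tested (grey) and the 29 members among them, coloured by role, with 116 genes outside the limits of 3.2 not shown. The grey cloud stretches along the diagonal, and both axes share the WT array. The synthesis genes gather in the lower left, Tm7sf2 and Ggps1 lie to the right of the vertical line, and Abca1 and Abcg1 lie in the upper left.

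Further genes of the pathway were read from a list of 39, of which 28 were tested. Of these, 11 were lower and 8 higher on both RASSF9-/- arrays, where the shares of all genes were the 32.7% and 33.6% given above, and their median log2 fold change was -0.11. No gene of that list passed the adjusted threshold of limma, and at an unadjusted p under 0.05 there were 2 lower and 1 higher. Among the 11089 genes tested, 270 (2.43%) were lower and 345 higher by that measure. Acss2, which makes acetyl-CoA from acetate and is an SREBP target, was the only one at least 2-fold from WT on both arrays. It had a signal of 879 in WT and, in RASSF9-/- cells, 171 on array 1 and 298 on array 2, which is 3.90-fold lower (log2 fold change -1.96, SE 0.55, limma adjusted p = 0.553). Its log2 fold change was -1.33 with the mean of its probe sets. A further pair was picked out after their values were seen, for their unadjusted p.

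Ch25h, which makes the oxysterol that activates LXR and holds back SREBP, had 651 in WT against 1128 (array 1) and 1952 (array 2) in RASSF9-/- cells (log2 fold change 1.19, SE 0.47, limma adjusted p = 0.865). Smpdl3a, an LXR target, had 2001 in WT, while the RASSF9-/- arrays 1 and 2 read 1092 and 541 (log2 fold change -1.38, SE 0.52, limma adjusted p = 0.828). Of the genes of further sterol steps and acetyl-CoA supply, 4 were tested and had a median log2 fold change of -0.45, with 3 lower and 1 higher on both RASSF9-/- arrays. The 6 genes of uptake and the lysosome had a median of -0.26, with 3 lower and 0 higher on both. The 6 LXR target, oxysterol and sulphate genes had a median of -0.21, with 3 lower and 2 higher on both. In the isoprenoid branch, which uses farnesyl and geranylgeranyl groups for other products, 7 genes had a median of 0.18, with 1 lower and 4 higher on both RASSF9-/- arrays. The 5 tested genes of SREBP cleavage and sterol-regulated degradation had a median of 0.08, with 1 lower and 1 higher on both.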

How the data were processed

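RNA of 3 samples was hybridised to Affymetrix mouse whole-genome arrays, WT (n = 1) and RASSF9-/- (n = 2). The deposited values are MAS5 signals, an intensity per probe set on a linear scale, which the authors scaled to a trimmed mean of 500 on every array (as the values show with 2% trimmed from either tail). The methods name GeneSpring, and no annotation version or threshold is given in the sources used here. Of 45037 probe sets that are not controls, 34945 have 1 gene symbol, 932 several and 9160 none, and RefSeq (GRCm38.p6) changed 0 symbols.

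From these, log2 values were computed without further scaling. Each gene was represented by its brightest probe set, and genes with a mean under the 50th percentile (a signal of 82.7) were not tested. The difference between genotypes was tested in limma 3.58.1 under R 4.3.3 (lmFit, then eBayes allowing the variance to follow intensity; two-sided), and p-values were adjusted by Benjamini-Hochberg over 11089 genes, with 0.05 as the limit for a call. Residual freedom (1 degree) comes from the RASSF9-/- pair alone, whose spread stands in for that of WT, and eBayes added 5.31 prior degrees of freedom. The number of arrays limits the precision, and p-values measure the spread between these cultures only. The array date was no term, because with it no residual freedom remains. The procedure was tested on simulated data. Every simulated array had independent noise with the spread of the RASSF9-/- pair, and no shift by array date or culture time. The simulation therefore cannot check the spread of WT or such shifts. The background level is the highest signal of 27 Bacillus subtilis control probe sets. All members are named, and of the other pathway genes those called or at least 2-fold from WT on both arrays. Members, lists and tests were chosen with earlier results of these data known. The alternatives were division by the array median, quantile normalization, a pseudocount of 32, no filter or one at the 75th percentile, probe sets averaged per gene, no intensity trend, the methods' t-test, background values raised, fold thresholds of 1.5 and 3, and leaving out each RASSF9-/- array. A second probe set was read as an alternative chosen after seeing the data. Motifs were searched in RefSeq promoter windows.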

Additional observations from a re-analysis of the deposited data

How the results depend on the processing

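With the filter at the 75th percentile, which Mvk did not pass, 15 synthesis genes were lower on both RASSF9-/- arrays. Under the other scalings, filters, pseudocount and background settings tried, the number was 16. It was 18 on RASSF9-/- array 2 alone and 16 on RASSF9-/- array 1 alone. The median log2 fold change of the synthesis genes ran from -0.85 to -0.79, or from -1.09 to -0.65 when 1 RASSF9-/- array was left out. The number higher was 0 to 2 when 1 RASSF9-/- array was left out. Of the 11089 genes tested, 5116 were lower and 5971 higher than WT on RASSF9-/- array 1 alone. On RASSF9-/- array 2 alone, 5873 were lower and 5214 higher. No member was called under any alternative tried, by limma or by the methods' t-test. Members lower at an unadjusted p under 0.05 were 11, and 6 after division by the array median, 7 with the mean of probe sets (which also gave 1 higher), 4 without the intensity trend and 1 with the methods' t-test. Synthesis genes at least 2-fold lower on both arrays were 1, and 4 after division by the array median, 2 with quantile normalization or the mean of probe sets. The number was 0 with the filter at the 75th percentile, which removed Mvk. Left out 1 at a time, the RASSF9-/- arrays gave medians of -0.65 to 0.10 for the uptake genes and -0.35 to 1.68 for the exporters. With the mean of probe sets, which takes in probe sets in the background, Abcg1 was not tested, the exporters' median was 1.56 and 1 of them, Abca1, was higher on both arrays. The log2 fold change of Ggps1 turned from 0.10 to -0.06 (-0.0632) with the mean of probe sets. Genes called higher over all genes were 9, and 0 with quantile normalization, background values raised or no intensity trend, 5 with the filter at the 75th percentile or a pseudocount of 32, and 3 with the methods' t-test. Called lower were 0, and 1 after division by the array median, 2 with the mean of probe sets and 1 with the methods' t-test. Apart from genes that a setting left untested, the cause of these shifts was not tested. No paired analysis was possible because WT has 1 array. Without RASSF9-/- array 1 or 2 no residual degree of freedom is left, so those values have no test. Signals in the background, such as those of Nr1h3, have no order.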
